A study of Mus musculus with 15 samples.

Results

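The comparison is of mouse conjunctiva after ocular challenge with ovalbumin (OVA) against conjunctiva after ocular challenge with phosphate-buffered saline (PBS). It uses 10 of the 15 bulk RNA-Seq libraries of the series, 5 per group, chosen by the challenge and the antibody in the sample labels. All 10 came from WT BALC/c mice (the spelling of the labels), which by the study's methods were females aged 9 to 12 weeks. Both groups had first been sensitized through the skin with OVA together with MC903, a vitamin D analog that inflames skin, at 2.5 nmol per day for 7 days, and were then challenged on the eye for 7 days. The OVA-challenged mice also received an isotype control antibody (25 mg/kg, 4 injections) and are called the isotype group. No antibody is named for the PBS group, so the effects of the OVA challenge and of the antibody cannot be told apart. The labels do not say whether each library is a separate animal, so p-values measure the spread between these samples, which may be technical. The remaining 5 libraries came from OVA-challenged mice given an anti-IL-4Ra antibody. They counted toward the minimum for testing a gene, and entered the scaling and the estimate of the spread, but are not compared here.

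Of 55487 genes in the table, 19006 had at least 10 counts in at least 5 of the 15 libraries and were tested. Library totals ran from 48622246 to 67453932 counts in the PBS group and from 48657048 to 87745024 in the isotype group. Levels are given as CPM (counts scaled to a common library total), as mean ± SD of 5 libraries, and changes as log2 fold changes of the isotype group over the PBS group with their standard error (SE). A gene is called higher or lower at an adjusted p under 0.05 in edgeR's quasi-likelihood test. The conjunctival label was checked against keratins and mucins of the ocular surface. *Krt13*, a keratin of moist stratified epithelia, averaged 958 ± 199 CPM after PBS and 946 ± 146 CPM after OVA. *Muc5ac*, the gel-forming mucin of conjunctival goblet cells, averaged 1560 ± 298 and 1740 ± 270 CPM.

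The conjunctiva is a mucous membrane of stratified epithelium with goblet cells over a vascular stroma that holds resident macrophages, mast cells and lymphocytes. In allergic conjunctivitis, allergen binds IgE on mast cells and basophils, and T helper 2 (Th2) cells supply IL-4, IL-5 and IL-13, which act on epithelium, macrophages and B cells. Eosinophils, monocytes and further lymphocytes then enter from the blood. In bulk tissue a change in the number of cells of a type and a change in RNA per cell cannot be told apart, and this holds for every cell type named here.

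After OVA challenge, 1812 genes were called higher (9.53% of those tested) and 1423 were called lower (7.49%). Rises were larger than falls. Of the genes called, 496 rose and 75 fell by over 1 on the log2 scale, and 147 rose and 4 fell by over 2. For 60 of the genes called higher, 42 of them among the 147, no PBS library reached 10 counts, so they were tested only because OVA-challenged libraries did. The median change was 0.56 among genes called higher and −0.40 among those called lower, beside −0.01 over all genes tested. For 1302 genes (6.85%) the lowest isotype library exceeded the highest PBS library, and for 1032 (5.43%) the order was the reverse. Beside the 3235 calls in all, refits called 2018 genes without PBS replicate 2, 2098 without PBS replicate 5, 2040 without isotype replicate 2 and 1863 without isotype replicate 3. How many of the 3235 are among these was not counted. Higher calls made up 56.0% of calls, a share that was 44.5% with upper-quartile scaling and 42.5% in a linear model on log2(FPKM + 1).

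**Figure D1:**
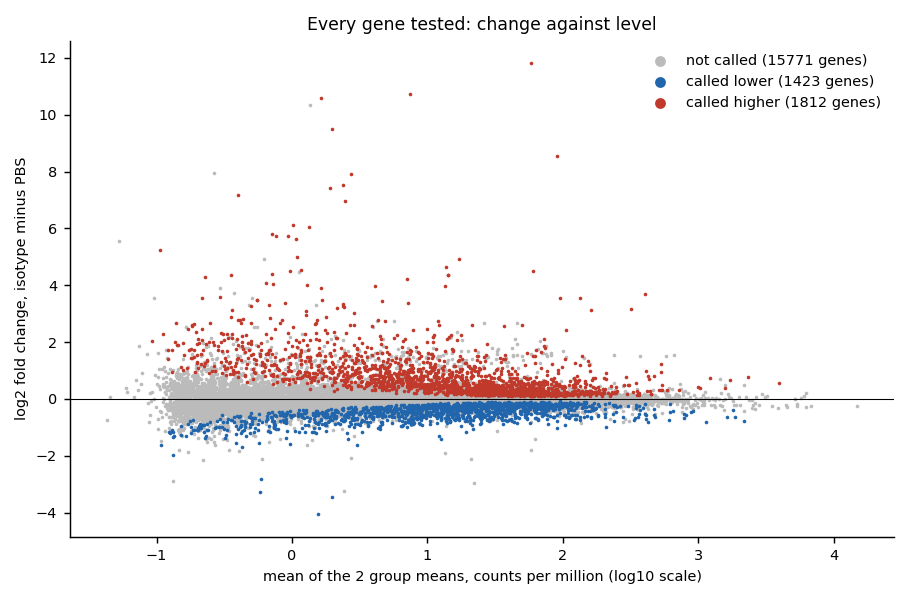
Each point is 1 of the 19006 genes tested, with the mean of the group means in CPM on a log10 axis and the log2 fold change of the isotype group over the PBS group on the other axis. The 1812 genes called higher reach much larger changes than the 1423 called lower, most of which lie between 0 and −1.

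Genes were grouped into 65 lists by cell type, pathway or tissue, and 1017 distinct list members were tested. Of these, 234 were called higher and 91 lower. The counts of each list below are to be read beside 9.53% called higher and 7.49% called lower over all genes tested. In each of 15 further fits that left out 1 library, 166 of the 234 and 37 of the 91 stayed called. Of the called genes 4, *Chil3*, *Mmp8*, *Il19* and *Il24*, fell below the count minimum in 5 of those fits each and were judged over the others. No PBS library reached 10 counts for 6 of the 234, *Chil3*, *Il19*, *Il24*, *Il10*, *Chst4* and *Hrh4*. These passed the count minimum only through OVA-challenged libraries and so had to differ, and their values are given below as a description, with the count of each list also given without them. Higher calls outnumbered lower ones in 39 lists, mainly of leukocytes, effector molecules, matrix and cell division. Lower calls outnumbered higher ones in 16 lists, mainly of muscle, energy metabolism, detoxification and tight junctions. The largest shares called higher were in the cytotoxic lymphocyte and eosinophil lists, and the largest share called lower was in fast skeletal muscle. Genes named beyond the first pair of a list were chosen after their values were seen.

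**Figure D2:**
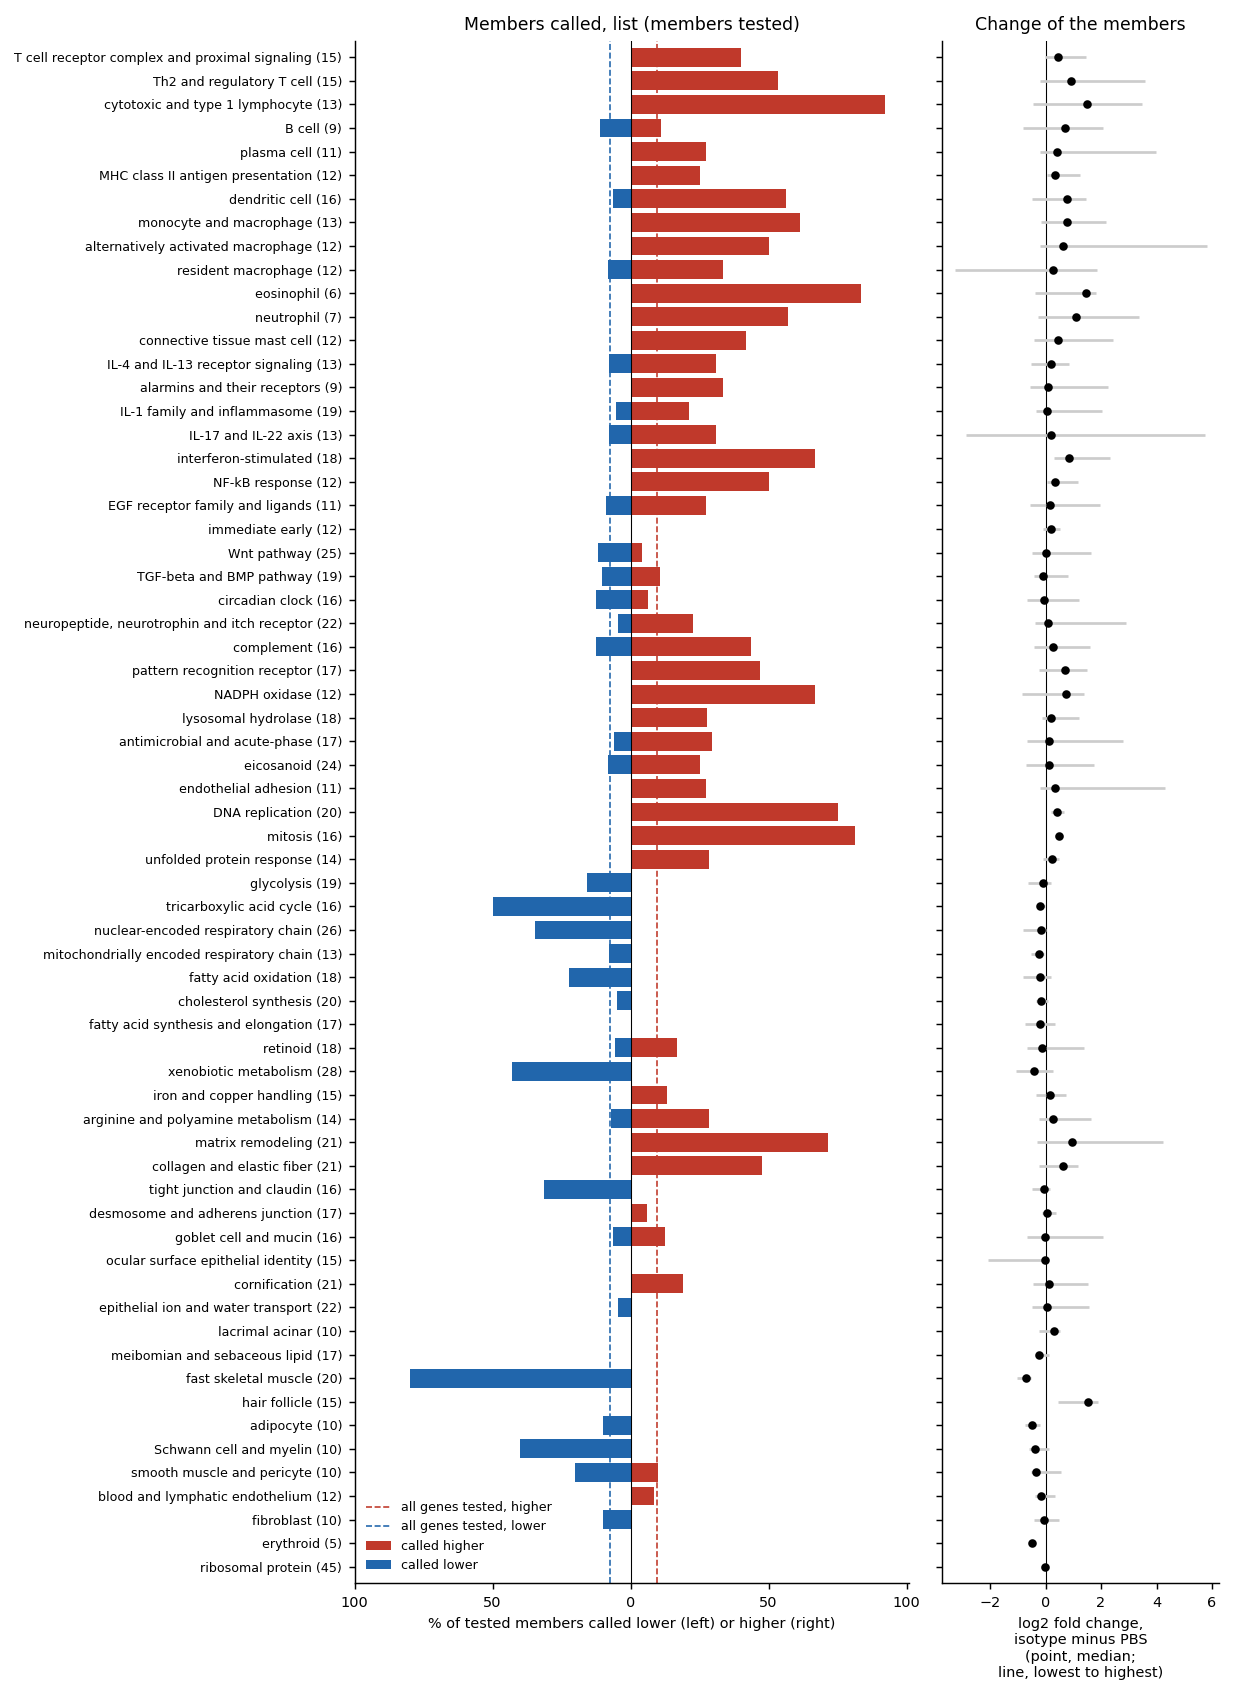
For each of the 65 lists, with the number of members tested in parentheses, bars show the percent of tested members called higher (right) or lower (left), and dashed lines show the shares over all genes tested, 9.53% and 7.49%. The right panel gives the median change of the list as a point and its lowest and highest member as the ends of a line.

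Conjunctival dissections can carry eyelid muscle, glands and hair follicles, and one of these moved with the groups. Of 20 fast skeletal muscle genes, 16 were called lower and none higher, with a median change of −0.72. *Pvalb*, a calcium-binding protein of fast fibers, measured 222, 357, 199, 263 and 343 CPM in PBS replicates 1 to 5 and 145, 124, 155, 115 and 164 CPM in isotype replicates 1 to 5. The groups did not overlap, and the change was −0.98 (SE 0.18, adjusted p = 0.00464). *Tcap*, a Z-disc protein, fell from 122 ± 48.8 to 60.3 ± 11.6 CPM (−1.02, adjusted p = 0.0184). Summed over the list, muscle transcripts took 11000 to 20300 CPM of each PBS library and 6790 to 10300 CPM of each isotype library, so the muscle score does not overlap between the groups. Of the 20 genes, 10 were called lower without PBS replicate 2 and 10 without PBS replicate 5, the libraries with the highest sums. Because that score tracks the challenge, counts from a fit with the score as a covariate, in which 426 genes were called higher and 61 lower, are given beside the gene groups below.

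The other neighboring tissues had no or few calls. None of 17 meibomian and sebaceous genes was called, with sums of 6240 to 11100 CPM after PBS and 4800 to 11000 CPM after OVA. The sebaceous keratin *Krt79* had 1730 ± 314 and 1760 ± 247 CPM. None of 10 lacrimal acinar genes was called either (389 to 1720 against 339 to 1290 CPM in sum), and *Rab3d*, a GTPase of secretory granules, changed by −0.20 (adjusted p = 0.119). The 15 hair follicle genes had a median of 1.53 with no call. Isotype replicate 2 held 8920 CPM of them and the other 9 libraries held 649 to 1380 CPM. *Krt71*, an inner root sheath keratin, was at 2940 CPM in that library and at 222 to 467 CPM in the others. Of 5 erythroid genes none was called (median −0.50), with *Hbb-bs* at 471 ± 130 and 335 ± 192 CPM. None of 45 ribosomal protein genes was called, and *Rpl4* had 1230 ± 47.2 and 1180 ± 29.8 CPM.

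**Figure D3:**
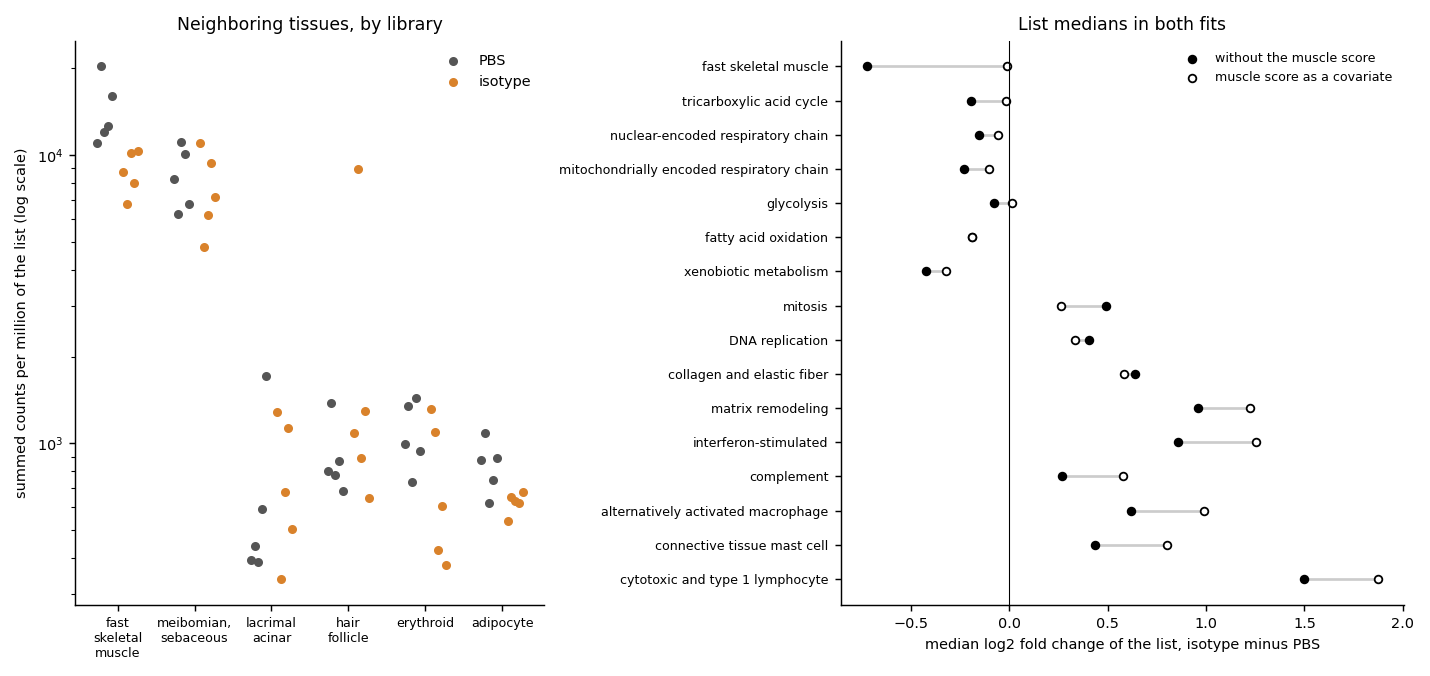
The left panel gives, on a log axis, the summed CPM of 6 tissue lists in each library, PBS in gray and isotype in orange, with fast skeletal muscle separated between the groups and 1 isotype library far above the rest in hair follicle genes. The right panel gives the median log2 fold change of 16 lists without (filled) and with (open) the muscle score as a covariate: the medians of the muscle, tricarboxylic acid cycle, respiratory chain and glycolysis lists move toward 0 while that of fatty acid oxidation hardly moves, and those of macrophage, complement and cytotoxic lymphocyte lists stay well above it.

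Cytotoxic and type 1 lymphocyte genes rose almost as a block. Of 13 tested, 12 were called higher and none lower, with a median of 1.5, and 7 were called higher with the muscle score as a covariate. *Gzmb*, which encodes the cytotoxic granule protease granzyme B, measured 0.316, 0.255, 0.177, 0.248 and 0.351 CPM in PBS replicates 1 to 5 and 1.25, 2.8, 2.66, 1.97 and 6.57 CPM in isotype replicates 1 to 5. Every isotype library was at least 3 times the highest PBS library, and the change was 3.49 (SE 0.39, adjusted p = 0.000344). *Gzma*, granzyme A, rose from 0.762 ± 0.094 to 4.6 ± 2.68 CPM (2.59, adjusted p = 0.000567), with isotype replicate 5 at 9.33 CPM and its group otherwise at 2.84 to 3.8 CPM. The natural killer receptors *Ncr1* and *Klrb1c* rose by 1.75 and 2.06, and the effector transcription factors *Eomes* and *Tbx21* by 2.04 and 0.81. *Cd8a*, the CD8 coreceptor, rose from 0.504 ± 0.0886 to 1.5 ± 0.321 CPM (1.56, adjusted p = 0.00176). *Ifng* was below the count minimum and was not tested.

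Of 15 T cell receptor complex and proximal signaling genes, 6 were called higher and none lower (median 0.44), 4 of them in every fit that left out 1 library. *Cd2*, an adhesion receptor of T cells, measured 1.81, 1.15, 1.79, 1.76 and 1.42 CPM in the PBS libraries and 2.9, 4.22, 5.29, 3.55 and 5.78 CPM in the isotype libraries. The groups were separate and the change was 1.45 (SE 0.24, adjusted p = 0.00228). *Cd6*, a costimulatory receptor, rose by 1.45 (SE 0.33, adjusted p = 0.0113), and the kinase *Lck* by 1.19. Of the 15 genes, 2 were called with the muscle score as a covariate.

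Th2 and regulatory T cell genes gave 8 higher calls and no lower call among 15 tested (median 0.93), each of which held in every fit that left out 1 library. With the muscle score as a covariate 2 of the 15 were called higher. Without *Il10* the list had 7 calls among 14 (median 0.87). *Il1rl1*, the IL-33 receptor carried by Th2 cells, mast cells and innate lymphoid cells, measured 3.37, 4.21, 4.02, 3.82 and 3.74 CPM in the PBS libraries and 4.88, 26.8, 19.8, 21.7 and 18.8 CPM in the isotype libraries. Isotype replicate 1 lay just above the PBS libraries and far below its own group, and the change was 2.27 (SE 0.31, adjusted p = 0.000936). *Foxp3*, the transcription factor of regulatory T cells, rose from 0.941 ± 0.176 to 2.87 ± 0.944 CPM (1.61, adjusted p = 0.00414). The cytokine *Il10* was at most 0.0708 CPM in the PBS group and 0.163 to 1.25 CPM in the isotype libraries. *Il4* rose by 1.74 and *Il13* by 1.30, both at under 1.2 CPM in every library, and the costimulator *Icos* rose by 1.32. *Gata3*, the Th2 transcription factor that epithelium also expresses, changed by 0.17 (adjusted p = 0.479), and *Il5* was below the count minimum.

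Of 9 B cell genes 7 had log2 fold changes above 0 and 2 below (median 0.69). One was called higher and 1 lower, beside 9.53% and 7.49% of all genes tested. *Cd22*, an inhibitory coreceptor of B cells, rose from 0.602 ± 0.323 to 2.54 ± 1.09 CPM (2.07, SE 0.42, adjusted p = 0.00694). *Blk*, a Src-family kinase of B cells and of some T cells, was called lower from 1.89 ± 0.353 to 1.09 ± 0.349 CPM (−0.80, adjusted p = 0.0444), but lost its call in 11 of the 15 fits that left out 1 library, with adjusted p up to 0.106. Neither was called with the muscle score as a covariate (*Cd22* adjusted p = 0.0552). Among 11 plasma cell genes 3 were called higher and none lower (median 0.41), and 2 with the muscle score as a covariate. *Jchain*, which links IgA and IgM polymers, measured 0.844 to 2.72 CPM in the PBS group and 16.6, 8.68, 9.06, 32.6 and 60.5 CPM in isotype replicates 1 to 5. Its change of 3.97 (SE 0.76, adjusted p = 0.0054) was 3.36 without isotype replicate 5. *Mzb1*, an endoplasmic reticulum cochaperone for immunoglobulin, rose by 2.65 (1.95 without isotype replicate 5).

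Of 12 genes of class II antigen presentation 3 were called higher and none lower (median 0.33), and 1 with the muscle score as a covariate. *Ctss*, the protease that trims the invariant chain, measured 55.9, 44.3, 48.5, 50.7 and 46 CPM in the PBS libraries and 71, 111, 140, 96.5 and 165 CPM in the isotype libraries. Its change was 1.25 (SE 0.20, adjusted p = 0.00228) with no overlap. *Ciita*, the class II transactivator, rose by 0.69 (adjusted p = 0.0268) but lost its call in 5 of the 15 fits that left out 1 library.

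Of 16 dendritic cell genes 9 were called higher and 1 lower (median 0.78), and 3 were called higher with the muscle score as a covariate. *Batf3* and *Irf8*, transcription factors of cross-presenting dendritic cells, rose by 1.46 (SE 0.21, adjusted p = 0.00126) and 1.11 (SE 0.16, adjusted p = 0.00103). *Ccr7*, which guides dendritic cells to lymph nodes, rose from 1.36 ± 0.401 to 3.56 ± 1.09 CPM (1.39, adjusted p = 0.00433). The growth factor receptor *Flt3* rose by 1.32 and the costimulator *Cd40* by 1.16. The lower call was *Cd207*, the langerin of Langerhans cells. *Cd207* measured 15, 10.5, 11.6, 12.4 and 12.7 CPM in the PBS libraries and 8.6, 8.34, 9.02, 9.59 and 8.97 CPM in the isotype libraries. The groups were separate, but its change of −0.48 (adjusted p = 0.0318) lost its call in 6 of the 15 fits that left out 1 library, with adjusted p up to 0.0719.

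Monocyte and macrophage genes rose, including those of the alternatively activated state that IL-4 and IL-13 induce. Of 13 monocyte and macrophage genes 8 were called higher and none lower (median 0.75). *Ms4a7*, a membrane protein of macrophages, measured 5.31, 4.87, 5.29, 4.64 and 6.03 CPM in the PBS libraries and 10, 19.6, 36, 19.2 and 33.1 CPM in the isotype libraries, a change of 2.17 (SE 0.28, adjusted p = 0.000641). The IgG receptor *Fcgr1* rose by 1.5 and *Csf1r*, the receptor that maintains macrophages, by 0.75. Of the 13 genes, 4 were called with the muscle score as a covariate.

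Of 12 genes of alternatively activated macrophages 6 were called higher and none lower (median 0.62), or 5 of 11 (median 0.39) without *Chil3*. All 6 held in every fit that left out 1 library, *Chil3* over the 10 in which it passed the count minimum, and with the muscle score as a covariate 6 were called and the median was 0.99. *Alox15*, the 12/15-lipoxygenase, measured 35.3, 34.9, 47.2, 27.2 and 21.1 CPM in the PBS libraries and 80, 118, 278, 133 and 281 CPM in the isotype libraries. The groups were separate and the change was 2.42 (SE 0.39, adjusted p = 0.00208). *Chil3*, a chitinase-like protein, was at most 0.0687 CPM in the PBS libraries and 0.225 to 2.06 CPM in the isotype libraries. *Retnla*, the resistin-like secreted protein RELM-alpha, measured 22.4, 41.3, 36.2, 33.9 and 29.7 CPM in the PBS libraries and 77.8, 31.4, 58.7, 108 and 186 CPM in the isotype libraries. Isotype replicate 2 lay within the PBS range, and the change was 1.5 (SE 0.37, adjusted p = 0.0171). *Pdcd1lg2*, the inhibitory ligand PD-L2, rose by 2.27 and *Mrc1*, the mannose receptor, by 1.42. *Arg1*, arginase 1, changed by 0.34 (adjusted p = 0.231).

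Resident macrophage genes had calls both ways, beside 9.53% called higher and 7.49% called lower over all genes tested. *Cd163*, the hemoglobin scavenger receptor, measured 31.9, 36.2, 27.1, 31.3 and 31.8 CPM in the PBS libraries and 46.9, 89, 134, 97.6 and 203 CPM in the isotype libraries, a change of 1.85 (SE 0.28, adjusted p = 0.00157) without overlap. *Siglec1*, a sialic acid receptor, rose by 1.45 and *Selenop*, a selenium carrier, by 0.82. The scavenger receptor *Marco* fell from 0.283 to 1.99 CPM in the PBS libraries to at most 0.21 CPM in the isotype libraries (−3.27, SE 0.64, adjusted p = 0.00599). In all 4 of 12 tested members were called higher and 1 lower (median 0.26), and 4 higher and none lower with the muscle score as a covariate, where *Marco* had an adjusted p of 0.0852.

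STAT6, which IL-4 and IL-13 activate, binds palindromes with a TTC and a GAA arm separated by 4 bases, and promoters of genes that rose were read for this spacing. As examples, 4 genes called higher that hold the letters TTCNNNNGAA were picked, and most genes called higher do not hold them. The 250 bases just upstream of the start of each are printed 5′ to 3′ on the strand of the gene, to show where the letters lie. They are from RefSeq on GRCm38.p6: *Retnla* at chr16:48842359-48842608 (+), *Pdcd1lg2* at chr19:29410669-29410918 (+), *Retnlg* at chr16:48872358-48872607 (+) and *Ms4a7* at chr19:11336147-11336396 (−), for the last of which the table holds 2 starts and the one with the match is shown. Capitals mark the match, which begins 145, 82, 72 and 13 bases before the start in that order.
Retnla: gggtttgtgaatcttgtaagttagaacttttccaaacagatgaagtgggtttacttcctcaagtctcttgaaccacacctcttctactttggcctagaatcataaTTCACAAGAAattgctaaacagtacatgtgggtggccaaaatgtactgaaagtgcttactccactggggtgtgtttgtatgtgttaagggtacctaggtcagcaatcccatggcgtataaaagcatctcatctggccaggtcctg
Pdcd1lg2: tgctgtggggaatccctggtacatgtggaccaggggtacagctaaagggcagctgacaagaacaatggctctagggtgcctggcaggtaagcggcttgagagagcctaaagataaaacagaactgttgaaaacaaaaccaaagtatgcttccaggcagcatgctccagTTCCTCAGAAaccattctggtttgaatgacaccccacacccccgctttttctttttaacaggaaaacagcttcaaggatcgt
Retnlg: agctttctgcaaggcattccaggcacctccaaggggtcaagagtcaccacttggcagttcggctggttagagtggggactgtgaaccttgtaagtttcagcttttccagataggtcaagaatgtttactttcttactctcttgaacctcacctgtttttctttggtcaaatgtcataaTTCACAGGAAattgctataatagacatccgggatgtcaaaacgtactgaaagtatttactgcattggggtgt
Ms4a7: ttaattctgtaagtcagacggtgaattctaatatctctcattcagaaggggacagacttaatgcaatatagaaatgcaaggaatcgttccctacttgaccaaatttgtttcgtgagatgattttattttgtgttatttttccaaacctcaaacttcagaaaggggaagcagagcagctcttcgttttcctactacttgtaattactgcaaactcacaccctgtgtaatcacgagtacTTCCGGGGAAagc

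*Retnla* and *Retnlg*, neighbors of the resistin-like family on chromosome 16, carry the match within a shared stretch: laid over each other without gaps, 108 of 177 upstream bases (61.0%) are the same. Both genes were called higher. Shares were taken over 250 bases before to 50 bases after the start. Over the 13380 tested genes with a RefSeq promoter, 6.78% held TTCNNNNGAA on either strand (the pattern reads the same on both), beside 8.78% of the 1378 called higher, 6.27% of the 1053 called lower and 12 of the 91 (13.2%) called higher by over 2 on the log2 scale. The spacing of other STAT factors, TTCNNNGAA, was held by 8.39% of all, 10.3% of those called higher, 8.36% of those called lower and 14.3% of the 91. These shares describe letters only, and no binding was measured.

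Granulocyte genes that passed the count minimum were mostly higher. Of 6 eosinophil genes tested 5 were called higher and none lower (median 1.46), each held in every fit that left out 1 library, and 2 were called with the muscle score as a covariate. *Ccr3*, the eotaxin receptor, measured 1.72, 1.87, 1.38, 1.47 and 1.39 CPM in the PBS libraries and 3, 3.94, 7.04, 5.43 and 8.29 CPM in the isotype libraries, a change of 1.82 (SE 0.36, adjusted p = 0.00598) without overlap. *Il5ra*, the IL-5 receptor chain, rose by 1.61 and *Siglecf* by 1.51. The defining granule protein genes *Epx*, *Prg2* and *Prg3* were below the count minimum.

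Of 7 neutrophil genes tested 4 were called higher and none lower (median 1.10), and 2 when PBS replicate 2 or isotype replicate 3, 4 or 5 was left out or the muscle score was a covariate. *Retnlg* measured 0.206, 0.713, 0.46, 0.382 and 0.351 CPM in the PBS libraries and 1.47, 3.08, 5.3, 3.2 and 8.49 CPM in the isotype libraries, a change of 3.35 (SE 0.51, adjusted p = 0.00161), although reads of *Retnla* and *Retnlg* may be shared. *Csf3r*, the receptor for granulocyte colony-stimulating factor, rose from 5.22 ± 0.897 to 22.6 ± 10.3 CPM (2.11, adjusted p = 0.000596). *S100a8*, an abundant neutrophil protein that keratinocytes also make, had 8.89 ± 2.82 and 16.9 ± 6.6 CPM (0.92, adjusted p = 0.392), and *Ly6g* and *Elane* were below the count minimum.

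Mast cell genes were mostly higher, with 10 of 12 log2 fold changes above 0, and those called were all enzymes. The enzymes *Mcpt4* and *Hpgds* were not called, and *Kit* and *Mrgprb2*, given below, are the 2 members below 0. The enzyme *Hdc*, which makes histamine, measured 2.74, 2.65, 2.51, 1.7 and 2.64 CPM in the PBS libraries and 4.19, 12.6, 12.9, 12.5 and 24.5 CPM in the isotype libraries (2.44, SE 0.34, adjusted p = 0.00102). *Tpsab1*, a tryptase, rose from 5.19 ± 1.17 to 24.7 ± 9.96 CPM (2.25, SE 0.28, adjusted p = 0.000567), and *Tph1*, which makes serotonin, by 1.52. *Kit*, the stem cell factor receptor that melanocytes also carry, had 45.5 ± 5.75 and 39.6 ± 5.48 CPM (−0.20, adjusted p = 0.22). *Mrgprb2*, a receptor of connective tissue mast cells, had 4.86 ± 1.22 and 3.66 ± 0.509 CPM (−0.41, adjusted p = 0.149). In all 5 of 12 genes were called higher and none lower (median 0.44), 3 without isotype replicate 3 and 8 without isotype replicate 1, and 5 with the muscle score as a covariate.

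Innate effector genes rose in several systems. Of 16 complement genes 7 were called higher and 2 lower (median 0.27), and 6 were higher with the muscle score as a covariate. *C3ar1*, the C3a receptor, measured 6.47, 5.06, 4.95, 5.49 and 4.89 CPM in the PBS libraries and 7.99, 13.5, 21.2, 14.6 and 24 CPM in the isotype libraries (1.6, SE 0.25, adjusted p = 0.0018). *C1qb* rose from 32.2 ± 3.01 to 73.8 ± 21.8 CPM (1.20, adjusted p = 0.00103), and its partners *C1qa* and *C1qc* rose by 0.98 and 1.07. The 2 lower calls were regulators, *Cd59a* (−0.42) and *Serping1* (−0.29), and neither was called when PBS replicate 2, 3, 4 or 5 or isotype replicate 2 or 3 was left out.

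All 8 called members of the 12 NADPH oxidase genes were higher (median 0.73), 7 of them in every fit that left out 1 library. With the muscle score as a covariate 4 of the 12 were called higher. *Ncf1*, a cytosolic subunit of the phagocyte oxidase, rose from 9.54 ± 0.997 to 24.8 ± 7.19 CPM (1.38, SE 0.19, adjusted p = 0.000936). The epithelial dual oxidase *Duox2* and its maturation factor *Duoxa2* rose by 0.96 and 1.24. Of 18 lysosomal hydrolases 5 were called higher and none lower (median 0.20), 8 without isotype replicate 1 and 4 with the muscle score as a covariate, with *Lgmn*, legumain, up from 81.5 ± 4.57 to 187 ± 64.2 CPM (1.20, adjusted p = 0.00201). *Ctsc*, the cathepsin that activates granule proteases, measured 94.1, 95.2, 97.9, 92 and 92.4 CPM in the PBS libraries and 118, 166, 158, 138 and 172 CPM in the isotype libraries (0.67, SE 0.08, adjusted p = 0.000409).

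Of 17 pattern recognition receptors 8 were called higher and none lower (median 0.71), 4 when PBS replicate 2 or 4 or isotype replicate 3 or 5 was left out, 12 without isotype replicate 1 and 2 with the muscle score as a covariate. *Tlr8*, an endosomal RNA sensor, rose from 1.22 ± 0.0743 to 2.83 ± 1.02 CPM (1.22, SE 0.21, adjusted p = 0.00305), and *Tlr13* and *Tlr9* by 1.14 and 1.08. The C-type lectin *Clec4d* had the largest change, 1.5 (adjusted p = 0.0374), with isotype replicate 1 below every PBS library, and lost its call in 8 of the 15 fits that left out 1 library. Of 17 antimicrobial and acute-phase genes 5 were called higher and 1 lower (median 0.12), and 3 and 1 with the muscle score as a covariate. *Saa3*, a local acute-phase protein, rose from 1.09 ± 0.269 to 7.52 ± 4.09 CPM (2.79, adjusted p = 0.00242), although isotype replicate 1, at 1.37 CPM, lay within the PBS range. *Wfdc12*, an epithelial protease inhibitor, rose from 3.05 ± 1.12 to 16.7 ± 4.62 CPM (2.45, adjusted p = 0.00173). *Saa2*, a second acute-phase form, changed by 1.66 and by 0.95 without isotype replicate 5. The lower call was the beta-defensin *Defb6*, at 232, 160, 205, 194 and 198 CPM in the PBS libraries and 153, 98.5, 116, 136 and 122 CPM in the isotype libraries (−0.66, SE 0.12, adjusted p = 0.00346).

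Of 24 eicosanoid genes 6 were called higher and 2 lower (median 0.12), the lower ones both lost without PBS replicate 1, 2 or 5 or isotype replicate 3, and 3 were higher with the muscle score as a covariate. *Tbxas1*, thromboxane synthase, rose from 2.85 ± 0.532 to 6.31 ± 1.67 CPM (1.15, adjusted p = 0.00455). *Cysltr2*, a receptor for cysteinyl leukotrienes, and *Alox5ap*, which presents substrate to 5-lipoxygenase, rose by 1.45 and 1.06. *Ptgs2*, cyclooxygenase 2, rose by 1.74 (adjusted p = 0.0196) with isotype replicate 1 below every PBS library, and its adjusted p was 0.0528 without isotype replicate 2. Among 11 endothelial adhesion genes 3 were called higher and none lower, 5 without isotype replicate 1 and 2 with the muscle score as a covariate. Without *Chst4* there were 2 calls among 10. *Sele*, E-selectin, rose from 1.57 ± 0.46 to 4.62 ± 1.67 CPM (1.55, SE 0.28, adjusted p = 0.00381) and *Selp*, P-selectin, from 5.49 ± 0.916 to 11.5 ± 3.1 CPM (1.07, SE 0.18, adjusted p = 0.00233). *Chst4*, a sulfotransferase of high endothelial venules, had 6 counts over the 5 PBS libraries, at most 3 in any, and 11 to 51 counts in each isotype library. *Icam1* changed by 0.39 (adjusted p = 0.0521) and *Vcam1* by 0.21.

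Cytokine signaling components rose less uniformly. Of 13 genes of IL-4 and IL-13 receptor signaling 4 were called higher and 1 lower (median 0.21), 2 higher without isotype replicate 2, with none called under the muscle score as a covariate. *Il2rg*, the common gamma chain, rose from 11.7 ± 1.04 to 20.9 ± 6.15 CPM (0.85, adjusted p = 0.01) and *Socs1*, a feedback inhibitor, from 6.81 ± 0.462 to 11.9 ± 3.03 CPM (0.81, adjusted p = 0.00647). *Il4ra* was called higher (0.74, adjusted p = 0.0342) and the decoy receptor *Il13ra2* lower (−0.54, adjusted p = 0.0295). *Il4ra* lost its call in 7 and *Il13ra2* in 4 of the 15 fits that left out 1 library, with adjusted p up to 0.0851 and 0.0713.

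Of 9 alarmin and alarmin receptor genes 3 were called higher, all of them receptor chains, and 1 with the muscle score as a covariate. Beside *Il1rl1*, *Crlf2*, the receptor for thymic stromal lymphopoietin, rose from 10.7 ± 0.592 to 14.5 ± 2.18 CPM (0.44, adjusted p = 0.0121) and *Il17ra*, which also serves IL-25, by 0.38. The alarmins themselves, *Tslp* (−0.15), *Il33* (0.10) and *Il25* (−0.57), did not pass the test. Of 19 IL-1 family and inflammasome genes 4 were called higher and 1 lower (median 0.06), and 1 and none with the muscle score as a covariate. *Il1b* measured 6.13, 3.78, 3.84, 3.73 and 4.27 CPM in the PBS libraries and 4.64, 23.3, 13.5, 20.4 and 26.6 CPM in the isotype libraries (2.02, SE 0.39, adjusted p = 0.00547). Isotype replicate 1 lay within the PBS range, and the adjusted p was 0.0993 with the covariate. *Nlrp3*, the inflammasome sensor, rose by 1.30 (adjusted p = 0.00694).

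The IL-17 and IL-22 axis had calls both ways, some of them of genes near 0 in the PBS group. Over all genes tested 9.53% were called higher and 7.49% lower. Of 13 genes tested 4 were called higher and 1 lower, and 2 and 1 with the muscle score as a covariate. Without *Il19* and *Il24* there were 2 higher calls and 1 lower among 11, and the same genes were below the count minimum when any isotype library was left out, which left 2 higher calls. *Il24*, an IL-10 family cytokine of keratinocytes, was at most 0.055 CPM in the PBS libraries and 0.286 to 2.91 CPM in the isotype libraries. *Il19*, which shares its receptor, had 0.0681 ± 0.0294 and 1.21 ± 0.763 CPM. *Il17c*, an epithelial IL-17, rose by 2.78 (adjusted p = 0.0178, and 0.216 with the covariate). *Il17a* had 0.241 ± 0.219 and 0.0238 ± 0.0445 CPM and did not pass the test (adjusted p = 0.0598).

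Interferon-stimulated genes rose in 12 of 18 cases with none lower (median 0.86). *Oas1a*, a double-stranded RNA sensor, measured 5.29, 5.94, 4.05, 3.06 and 8.35 CPM in the PBS libraries and 14.5, 24.9, 17.4, 7.23 and 15.2 CPM in the isotype libraries (1.57, SE 0.32, adjusted p = 0.00737). Isotype replicate 4 lay within the PBS range. *Cxcl10*, a chemokine for type 1 lymphocytes, rose by 2.32 (adjusted p = 0.0125), and by 1.48 without isotype replicate 2, which held 8.3 CPM while the remaining isotype libraries held 1.01 to 2.41 CPM. Of the 18 genes 6 were called without PBS replicate 1, without PBS replicate 4 or without isotype replicate 2. With the muscle score as a covariate 1 gene was called while the median was 1.25.

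Of 12 NF-kB response genes 6 were called higher and none lower (median 0.33), 2 without PBS replicate 2 and none with the muscle score as a covariate. *Tnf* rose from 8.19 ± 2.54 to 18.2 ± 6.92 CPM (1.15, adjusted p = 0.0253) and the inhibitor *Tnfaip3* from 21.7 ± 3.33 to 37.5 ± 13.5 CPM (0.79, adjusted p = 0.0205). *Tnf* lost its call in 5 and *Tnfaip3* in 2 of the 15 fits that left out 1 library. None of 12 immediate early genes was called, the most abundant being *Junb* at 196 ± 28.1 and 255 ± 35.4 CPM (0.38, adjusted p = 0.074). Of 11 genes of the EGF receptor family and its ligands 3 were called higher and 1 lower, and none with the muscle score as a covariate. *Epgn* (epigen) rose from 1.88 ± 0.527 to 7.25 ± 3.59 CPM (1.95, adjusted p = 0.00922) and *Areg* (amphiregulin) by 0.87 (adjusted p = 0.0118). Betacellulin, *Btc*, went the other way, at 13.3, 15.1, 10.5, 13.8 and 14.2 CPM in the PBS libraries and 8.87, 9.04, 8.99, 8.47 and 9.8 CPM in the isotype libraries (−0.57, SE 0.10, adjusted p = 0.00255).

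Developmental signaling pathways had calls both ways, beside 9.53% called higher and 7.49% called lower over all genes tested. Of 25 Wnt pathway genes 1 was called higher and 3 lower (median 0.01), and none with the muscle score as a covariate. *Lgr6*, a stem cell receptor for R-spondins, fell from 36.8 ± 5.86 to 26.3 ± 0.935 CPM (−0.48, adjusted p = 0.018), and the Wnt antagonist *Dkk2* from 22.2 ± 1.93 to 16.7 ± 1.92 CPM (−0.41, adjusted p = 0.0116). *Lef1* was called higher (1.65, adjusted p = 0.0438) through isotype replicate 2, at 32.8 CPM where the rest of its group had 3.2 to 6.51 CPM. The change of *Lef1* was 0.59 without that library, and it lost its call in 10 of the 15 fits that left out 1 library. Of 19 TGF-beta and BMP genes 2 were called higher and 2 lower, with 4 higher without isotype replicate 1 and 1 lower without PBS replicate 2, 3, 4 or 5 or isotype replicate 3. The fit with the covariate gave 1 higher call and no lower call. *Inhba*, the activin A subunit, rose from 3.4 ± 0.278 to 5.88 ± 1.76 CPM (0.79, adjusted p = 0.0071) and *Tgfb1* from 40.5 ± 1.72 to 56.6 ± 8.23 CPM (0.48, adjusted p = 0.00757). *Tgfb2* fell from 21.5 ± 1.87 to 15.9 ± 1.62 CPM (−0.43, adjusted p = 0.00335), so these ligands moved in opposite directions.

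Of 16 circadian clock genes 1 was called higher and 2 lower, and 1 and 1 with the muscle score as a covariate. These counts are near the shares over all genes tested, 9.53% higher and 7.49% lower. *Per2*, a repressor of the clock, measured 3.09, 3.83, 5.18, 4.68 and 5.68 CPM in the PBS libraries and 9.15, 12.7, 11.8, 9.24 and 9.12 CPM in the isotype libraries, a change of 1.21 (SE 0.20, adjusted p = 0.00226). *Npas2*, an activator, measured 31.1, 29.1, 34.6, 28.6 and 27.1 CPM in the PBS libraries and 21, 15, 18.1, 20.8 and 19.4 CPM in the isotype libraries (−0.67, SE 0.09, adjusted p = 0.000912). Its family member *Arntl* fell by 0.33 on the log2 scale (adjusted p = 0.015). All 3 genes were separate between the groups, *Per2* upward and the others downward, as were 6.85% and 5.43% of all genes tested. *Per1*, *Per3*, *Dbp*, *Nr1d1*, *Nr1d2*, *Cry1* and *Clock* did not pass the test. The time of day of collection is not given in the sources used here.

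Of 22 neuropeptide, neurotrophin and itch genes 5 were called higher and 1 lower (median 0.10), 3 higher when PBS replicate 2, 3, 4 or 5 or isotype replicate 2, 3, 4 or 5 was left out and 1 with the muscle score as a covariate. Without *Hrh4* there were 4 higher calls among 21. *Osm*, oncostatin M, an itch-linked cytokine of myeloid cells, measured 0.481, 0.458, 0.407, 0.363 and 0.387 CPM in the PBS libraries and 0.96, 3.83, 2.22, 2.2 and 6.54 CPM in the isotype libraries (2.90, SE 0.42, adjusted p = 0.00126). *Tacr1*, the substance P receptor, rose from 1.44 ± 0.397 to 3.21 ± 0.44 CPM (1.15, SE 0.17, adjusted p = 0.00161). The histamine receptor *Hrh4* had at most 9 counts in a PBS library and 4 to 22 counts in the isotype libraries.

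Matrix genes were among the most uniformly raised. Of 21 matrix remodeling genes 15 were called higher and none lower (median 0.96), 14 in every fit that left out 1 library and 11 with the muscle score as a covariate. *Mmp13*, a collagenase, measured 0.729, 1.05, 0.956, 0.497 and 0.351 CPM in the PBS libraries and 2.8, 12.7, 14.5, 17 and 20.7 CPM in the isotype libraries (4.23, SE 0.48, adjusted p = 0.000375). *Mmp10*, a stromelysin, rose by 3.99 (SE 0.59, adjusted p = 0.00146), but isotype replicate 1, at 0.286 CPM, lay within the PBS range of 0.0703 to 0.305 CPM. *Timp1*, an inhibitor of these proteases, rose from 3.08 ± 0.571 to 20.7 ± 11 CPM (2.75, adjusted p = 0.000929). *Postn*, periostin, which IL-13 induces in fibroblasts, measured 337, 272, 298, 327 and 336 CPM in the PBS libraries and 517, 666, 936, 618 and 963 CPM in the isotype libraries (1.24, SE 0.16, adjusted p = 0.000637). *Tnc*, tenascin C, rose by 1.28, and the crosslinking enzyme *Lox* by 0.97. *Mmp12*, the macrophage elastase, did not pass the test (−0.31, adjusted p = 0.411).

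Of 21 collagen and elastic fiber genes 10 were called higher and none lower (median 0.64), 7 in every fit that left out 1 library and 2 with the muscle score as a covariate. *Col6a2* measured 223, 291, 288, 274 and 305 CPM in the PBS libraries and 378, 567, 666, 480 and 653 CPM in the isotype libraries (0.99, SE 0.14, adjusted p = 0.00109), and *Col6a3* and *Col6a1*, the other chains of collagen VI, rose by 1.18 and 0.80. *Col3a1* rose from 1720 ± 145 to 2920 ± 796 CPM (0.77, adjusted p = 0.0178). *Col1a1* did not pass the test (adjusted p = 0.0625). Against this, of 10 fibroblast identity genes none was called higher, and *Dcn*, decorin, fell from 1050 ± 101 to 787 ± 93.5 CPM (−0.42, SE 0.09, adjusted p = 0.00926), a change of −0.15 with the muscle score as a covariate.

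Cell division genes rose by small amounts in many members. Of 20 DNA replication genes 15 were called higher and none lower (median 0.41), and of 16 mitosis genes 13 were called higher and none lower (median 0.49). *Mcm5*, a subunit of the replicative helicase, measured 30.8, 26.8, 27.9, 27.6 and 27.4 CPM in the PBS libraries and 35.5, 63.6, 46.9, 32.3 and 40.3 CPM in the isotype libraries (0.64, SE 0.14, adjusted p = 0.00982). *Cdc6*, which loads the helicase, rose by 0.65, and the mitotic checkpoint kinase *Bub1* from 5.93 ± 0.329 to 9.19 ± 2.4 CPM (0.63, SE 0.15, adjusted p = 0.0134). *Plk1* rose by 0.57 and *Mki67* by 0.54. Isotype replicate 2, the library rich in hair follicle transcripts, was the highest for each gene named here. Fewer members were called in some fits that left out 1 library. Of 20 replication genes 9 were called without PBS replicate 2 or without isotype replicate 3, and of 16 mitosis genes 5 without PBS replicate 5. No member of either list was called with the muscle score as a covariate, and the medians were 0.33 and 0.27. Of 14 unfolded protein response genes 4 were called higher (median 0.23), 7 without anti-IL-4Ra replicate 3 and none with the muscle score as a covariate, with the disulfide isomerase *Pdia4* up from 77.4 ± 4.48 to 96.4 ± 11.2 CPM (0.32, adjusted p = 0.0091) and the chaperone *Hspa5* from 395 ± 20.3 to 480 ± 21.2 CPM (0.28, adjusted p = 0.0328). *Hspa5* lost its call in 6 of the 15 fits that left out 1 library.

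The identity genes of the ocular surface did not pass the test, while markers of the wound state did. None of 15 ocular surface epithelial identity genes was called (median −0.02). The corneal keratin *Krt12* had 1.4, 13, 2, 4.43 and 1.37 CPM in the PBS libraries and 0.695 to 1.33 CPM in the isotype libraries (−2.07, adjusted p = 0.136), a change of −1.12 without PBS replicate 2. Of 21 cornification genes 4 were called higher and none lower (median 0.14), 2 without isotype replicate 3 and 1 with the muscle score as a covariate. *Krt6a* and *Krt6b*, the keratins of wounded and hyperproliferative epithelium, rose from 1320 ± 224 to 2100 ± 288 CPM (0.67, adjusted p = 0.00973) and from 921 ± 170 to 1520 ± 284 CPM (0.72, adjusted p = 0.00985), although reads of the pair may be shared. With the covariate the adjusted p was 0.0577 for *Krt6a* and 0.037 for *Krt6b*. *Dsg1b*, a desmoglein, was the only call among 17 desmosome and adherens junction genes (0.38, SE 0.09, adjusted p = 0.01), with isotype libraries at 37.4 to 39.2 CPM and PBS libraries at 26.3 to 32.7 CPM, and was not called with the covariate.

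Tight junction genes had lower calls only, in 5 of 16 members (median −0.07), of which 1 was left without PBS replicate 2 and none with the muscle score as a covariate. *Cgn*, cingulin, fell from 84.9 ± 8.57 to 67.2 ± 5.73 CPM (−0.34, SE 0.07, adjusted p = 0.00725) and held in every fit that left out 1 library. *Cldn8* fell from 13.8 ± 1.04 to 9.82 ± 1.93 CPM (−0.49, adjusted p = 0.0393) and *Cldn23* from 56.8 ± 7.77 to 42.5 ± 5.23 CPM (−0.42, adjusted p = 0.0202). *Cldn8* lost its call in 7 of those fits and *Cldn23* in the fit without PBS replicate 2. Among 22 ion and water transport genes *Cftr*, the chloride channel, was the single call (−0.47, adjusted p = 0.0439), lost in 8 of those fits and with the covariate.

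Goblet cell genes had calls both ways, beside 9.53% called higher and 7.49% called lower over all genes tested. Of 16 genes tested 2 were called higher and 1 lower, and with the muscle score as a covariate also 2 and 1. *Clca1*, a secreted protein of goblet cells under IL-13, measured 0.371, 0.356, 0.478, 0.306 and 0.562 CPM in the PBS libraries and 0.592, 0.993, 2.02, 1.47 and 3.61 CPM in the isotype libraries (2.06, SE 0.42, adjusted p = 0.00695). *Spdef*, the goblet cell transcription factor, rose from 8.11 ± 1.05 to 14.9 ± 3.2 CPM (0.88, SE 0.16, adjusted p = 0.00366). *Muc5ac* itself did not pass the test (0.16, adjusted p = 0.559). The membrane mucin *Muc15* fell from 48.3 ± 4.91 to 36.3 ± 4.15 CPM (−0.41, SE 0.09, adjusted p = 0.00883).

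Detoxification enzymes fell. Of 28 xenobiotic metabolism genes 12 were called lower and none higher (median −0.42), 7 of them in every fit that left out 1 library. The count was 7 when PBS replicate 2, 4 or 5 or isotype replicate 2 or 3 was left out. *Fmo2*, a flavin monooxygenase, measured 58.7, 66.1, 62.7, 57.8 and 50.4 CPM in the PBS libraries and 37.2, 24.8, 32.5, 39.8 and 28.6 CPM in the isotype libraries (−0.86, SE 0.13, adjusted p = 0.00191). *Gstm1*, a glutathione transferase, measured 249, 261, 238, 233 and 272 CPM in the PBS libraries and 188, 119, 160, 171 and 161 CPM in the isotype libraries (−0.65, SE 0.10, adjusted p = 0.00151). Both genes were separate between the groups. *Aldh3a1*, the aldehyde dehydrogenase that is abundant in the cornea, fell from 970 ± 107 to 603 ± 148 CPM (−0.69, adjusted p = 0.0132), *Adh7* by 0.64 on the log2 scale and *Nqo1*, a quinone reductase, by 0.37. *Cyp2e1* had the largest change (−1.05, adjusted p = 0.0447), lost in 11 of the 15 fits that left out 1 library. With the muscle score as a covariate no member was called and the median was −0.32, with *Fmo2* at −0.70 (adjusted p = 0.0708) and *Gstm1* at −0.47 (adjusted p = 0.0705).

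Retinoid genes had 3 higher calls and 1 lower call in 18 tested, and none with the muscle score as a covariate. The shares over all genes tested were 9.53% higher and 7.49% lower. *Lrat*, which esterifies retinol for storage, rose from 1.55 ± 0.234 to 4.04 ± 2.17 CPM (1.38, SE 0.28, adjusted p = 0.00684). The retinoic acid-producing enzyme *Aldh1a3* rose from 64.2 ± 11.3 to 121 ± 35.6 CPM (0.91, adjusted p = 0.0131), and *Dhrs9* rose by 0.70. *Aldh1a1*, which carries out the same step as *Aldh1a3*, fell from 43 ± 6.26 to 27.1 ± 5.84 CPM (−0.67, SE 0.16, adjusted p = 0.015). Of 14 arginine and polyamine genes 4 were called higher and 1 lower (median 0.26), again none with that covariate and 2 higher without isotype replicate 2 or 3. *Arg2*, the mitochondrial arginase, rose from 4.94 ± 0.53 to 9.38 ± 2 CPM (0.93, SE 0.18, adjusted p = 0.00598), and *Odc1*, the rate-limiting polyamine enzyme, by 0.60. *Nos2*, inducible nitric oxide synthase, rose by 1.65 (adjusted p = 0.0224) with isotype replicate 4 below every PBS library, and lost its call without PBS replicate 2, isotype replicate 2 or isotype replicate 3. Of 15 iron and copper genes 2 were called higher (5 without isotype replicate 1), the transporter *Slc39a14* (0.75, adjusted p = 0.0165) and the ferritin chain *Ftl1* (0.31, adjusted p = 0.0299), the second lost in 6 of the 15 fits and both lost with the covariate.

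Energy metabolism genes that fell included the striated muscle isoforms of several enzymes, and muscle transcripts as a whole were lower in the isotype group. Of 19 glycolysis genes 3 were called lower and none higher, all without a call when isotype replicate 2 was left out or the muscle score was a covariate. *Eno3*, the enolase of muscle, fell from 440 ± 118 to 281 ± 45.5 CPM (−0.64, SE 0.17, adjusted p = 0.0238), while *Eno1*, the enolase of most tissues, changed by 0.11 (adjusted p = 0.384). *Pfkm* fell from 340 ± 89.6 to 221 ± 30.6 CPM (−0.62, adjusted p = 0.0212), and *Pfkp* and *Pfkl* changed by 0.08 and −0.11. The phosphoglycerate mutase *Pgam2* of muscle changed by −0.50 (adjusted p = 0.0512) and *Pgam1* by 0.10. In the respiratory chain, *Cox6a2*, *Cox7a1* and *Cox8b* fell by 0.83, 0.69 and 0.73 on the log2 scale, while their counterparts *Cox6a1*, *Cox7a2* and *Cox8a* changed by 0.02, −0.11 and −0.05. *Cpt1b*, the muscle carnitine palmitoyltransferase, was called at −0.70 (adjusted p = 0.0293) and *Cpt1a*, the form of other tissues, was not called at 0.20. With the muscle score as a covariate, *Eno3* stood at 0.04 and *Cpt1b* at 0.07. That score is made of muscle genes and does not overlap between the groups, so the fit cannot separate muscle content from the challenge. The cause of these falls was not tested.

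**Figure D4:**
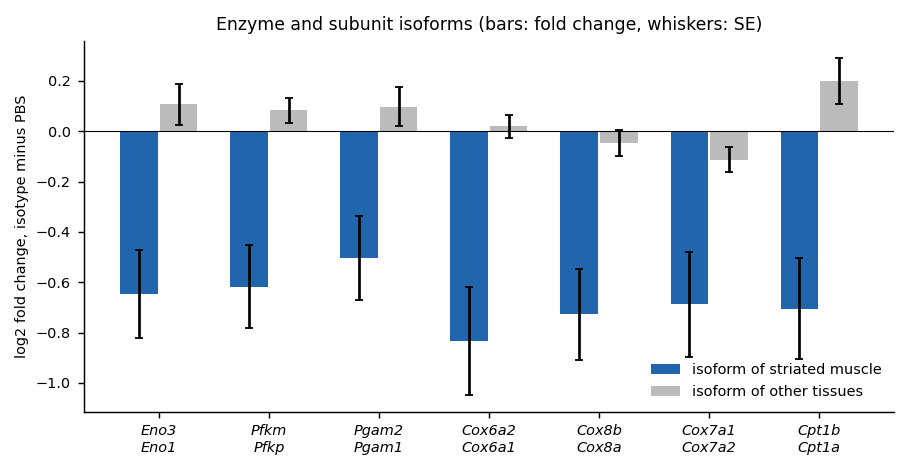
Bars give the log2 fold change of the isotype group over the PBS group, with whiskers of 1 SE, for 7 pairs of isoforms, blue for the isoform of striated muscle and gray for the isoform of other tissues. The muscle isoforms lie between −0.50 and −0.83 and the others between −0.11 and 0.20.

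Over whole lists, 8 of 16 tricarboxylic acid cycle genes were called lower (median −0.19), 9 of 26 nuclear-encoded respiratory chain genes (median −0.15), 1 of 13 mitochondrially encoded ones (median −0.23) and 4 of 18 fatty acid oxidation genes (median −0.19), with no higher call. Leaving out PBS replicate 2, the library richest in muscle, gave 2, 3 and 0 calls in the tricarboxylic acid cycle, nuclear-encoded and fatty acid oxidation lists. The first of these lists also had 2 calls without PBS replicate 5, isotype replicate 2 or isotype replicate 3, and the second had 16 without isotype replicate 1. *Cs*, citrate synthase, held in every fit that left out 1 library, at 438, 448, 422, 416 and 434 CPM in the PBS libraries and 386, 382, 391, 367 and 388 CPM in the isotype libraries (−0.17, SE 0.04, adjusted p = 0.0163). *Sdha* fell from 200 ± 20.1 to 168 ± 11.7 CPM (−0.26, adjusted p = 0.0368) and *mt-Atp6* from 1030 ± 123 to 742 ± 97.3 CPM (−0.47, adjusted p = 0.0488). *Sdha* lost its call in 5 and *mt-Atp6* in 11 of the 15 fits. *Ppargc1a*, a coactivator of mitochondrial genes, fell from 4.87 ± 0.987 to 3.48 ± 0.318 CPM (−0.48, adjusted p = 0.0261) and lost its call in 4. With the muscle score as a covariate no gene of these lists was called. Lipid synthesis had a single call in 20 cholesterol synthesis genes, *Fdft1* (−0.20, adjusted p = 0.0312, lost in 7 of the 15 fits, with 4 called lower without isotype replicate 1), and none in 17 genes of fatty acid synthesis and elongation, where *Scd1* had 7440 ± 2400 and 6270 ± 2630 CPM.

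In the stromal and nerve lists, *Rgs5* and *Pecam1* were the calls that remained with the muscle score as a covariate. Over all genes tested 9.53% were called higher and 7.49% lower, and a single call in a list of 10 or 12 is near these shares. Of 10 Schwann cell and myelin genes 4 were called lower (median −0.39), none of them without PBS replicate 2, PBS replicate 5 or isotype replicate 3. *S100b*, a calcium-binding protein of glia, fell from 5.87 ± 0.911 to 3.89 ± 1.1 CPM (−0.59, adjusted p = 0.0454, lost in 9 of the 15 fits) and *Ncmap* from 4.61 ± 0.606 to 3.28 ± 0.507 CPM (−0.49, adjusted p = 0.0328, lost in 5). *Pnpla2*, a triglyceride lipase that muscle also expresses, was the 1 lower call of 10 adipocyte genes (−0.43, adjusted p = 0.0151), with 4 without PBS replicate 3. Among 10 smooth muscle and pericyte genes *Rgs5* was called higher (0.55, adjusted p = 0.0223) and *Des* and *Kcnj8* lower (−0.54, adjusted p = 0.0483, and −0.50, adjusted p = 0.014). *Rgs5* lost its call in 3 and *Des*, which skeletal muscle also expresses, in 12 of the 15 fits. *Pecam1* was the single call among 12 endothelial genes (0.33, adjusted p = 0.044, lost in 11 of the 15 fits).

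Outside the lists, the largest rises with no overlap between the groups included granule proteins, secreted epithelial proteins and chemokines. *Rnase2a*, a ribonuclease of the eosinophil-associated family, measured 1.03, 0.696, 1.63, 1.26 and 0.791 CPM in the PBS libraries and 21.3, 17.9, 30.3, 31.5 and 64.4 CPM in the isotype libraries (4.93, SE 0.42, adjusted p = 9.62e-05). *Mcpt2*, a mucosal mast cell protease, had 8 counts over the 5 PBS libraries and 632 over the 5 isotype libraries, with 17 to 269 in each. *Msx3*, a homeobox gene, had 0.0633 ± 0.0362 and 2.1 ± 1.56 CPM. Both passed the count minimum only through OVA-challenged libraries and so had to differ. The chemokine *Ccl8*, a CCR8 ligand in mice, measured 32.5, 27.4, 29.8, 37.9 and 38.7 CPM in the PBS libraries and 140, 252, 400, 222 and 434 CPM in the isotype libraries (3.12, SE 0.30, adjusted p = 0.000177), and *Cxcl2*, a neutrophil attractant, rose by 3.02.

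Some of these rises were of epithelial genes. *Gsdmc2*, a gasdermin, measured 1.88, 0.916, 0.867, 0.975 and 0.598 CPM in the PBS libraries and 10.3, 16.8, 52.9, 14.4 and 36.6 CPM in the isotype libraries (4.63, SE 0.49, adjusted p = 0.000214). Its neighbors *Gsdmc*, *Gsdmc3* and *Gsdmc4*, with which it may share reads, rose by 2.59, 4.52 and 2.31. *Sprr1b*, a cornified envelope precursor, rose from 15.2 ± 4.71 to 177 ± 75.1 CPM (3.54, SE 0.35, adjusted p = 0.000177), and the desmoglein *Dsg1c* by 3.45. Further genes, whose cell of origin was not examined, were the protease inhibitor *Stfa2*, the kallikrein *Klk1*, the steroid reductase *Akr1d1* and *Jakmip2*. They rose by 3.26, 3.21, 3.10 and 2.94. Among abundant genes that rose, *Klk6* went from 72.6 ± 13.6 to 206 ± 50.5 CPM (1.5, adjusted p = 0.000177), and *Gjb2*, connexin 26, from 87.7 ± 12.8 to 221 ± 116 CPM (1.33, adjusted p = 0.00518). *Samhd1*, a nucleotide hydrolase of myeloid cells, rose by 0.97 and *Rptn*, repetin, by 0.78. *Fabp5*, the epidermal fatty acid-binding protein, rose by 0.69 (adjusted p = 0.0472) and lost its call in 11 of the 15 fits. Of these abundant genes, *Klk6* and *Samhd1* stayed called with the muscle score as a covariate, and *Gjb2* (0.94, adjusted p = 0.205), *Rptn* (0.73, adjusted p = 0.122) and *Fabp5* (0.40, adjusted p = 0.554) did not.

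Among the largest falls, *Slurp2*, a secreted Ly6 protein of stratified epithelium, measured 24.5, 16.6, 17.2, 16.8 and 16.7 CPM in the PBS libraries and 8.56, 6.68, 7.36, 6.46 and 5.51 CPM in the isotype libraries (−1.41, SE 0.20, adjusted p = 0.00116), and −1.5 with the muscle score as a covariate. The growth factors *Bmp5* and *Fgf18* fell from 3.57 ± 0.5 to 1.55 ± 0.373 CPM (−1.21, SE 0.17, adjusted p = 0.00118) and from 5.81 ± 1.22 to 2.84 ± 0.624 CPM (−1.04, SE 0.21, adjusted p = 0.00664). *Serpina3b*, a serine protease inhibitor with close copies, fell from 26.8 ± 6.94 to 11.9 ± 3.24 CPM (−1.18, adjusted p = 0.00752). *Gsta1*, another glutathione transferase, measured 8.54, 9.59, 8.71, 7.72 and 7.38 CPM in the PBS libraries and 4.94, 4.32, 3.59, 4.65 and 4.15 CPM in the isotype libraries (−0.95, SE 0.12, adjusted p = 0.000742), and −0.90 with that covariate. *Rasgrf1*, a guanine nucleotide exchange factor, fell by 0.96 on the log2 scale, and *Lce1m*, a cornified envelope protein, from 302 ± 67.3 to 178 ± 12.3 CPM (−0.76, adjusted p = 0.0114). Of the falls named here, *Slurp2* and *Gsta1* stayed called with the covariate. The calls of *Bmp5* (−0.84, adjusted p = 0.0578), *Fgf18* (−0.75, adjusted p = 0.193), *Serpina3b* (−1.34, adjusted p = 0.0665), *Rasgrf1* (−0.87, adjusted p = 0.104) and *Lce1m* (−0.61, adjusted p = 0.234) were lost.

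Other falls were smaller with the muscle score as a covariate, and none of them was called in that fit. *Ampd1*, the AMP deaminase of muscle, fell from 23.3 ± 7.21 to 12.1 ± 3.06 CPM (−0.95, adjusted p = 0.016) and stood at −0.12 with the covariate. *Lrtm1*, *Art5* and *Lrrc38* fell by 1.12, 0.98 and 0.95 on the log2 scale, and their changes were −0.61, −0.44 and −0.44 with the covariate. Of the abundant falls, the glycogen phosphorylase *Pygm* and the sarcomere genes *Mybpc1* and *Mybpc2* had changes of −0.67, −0.62 and −0.63 and none of them stayed called in every fit that left out 1 library. With the covariate they lay between −0.01 and 0.12.

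**Figure D5:**
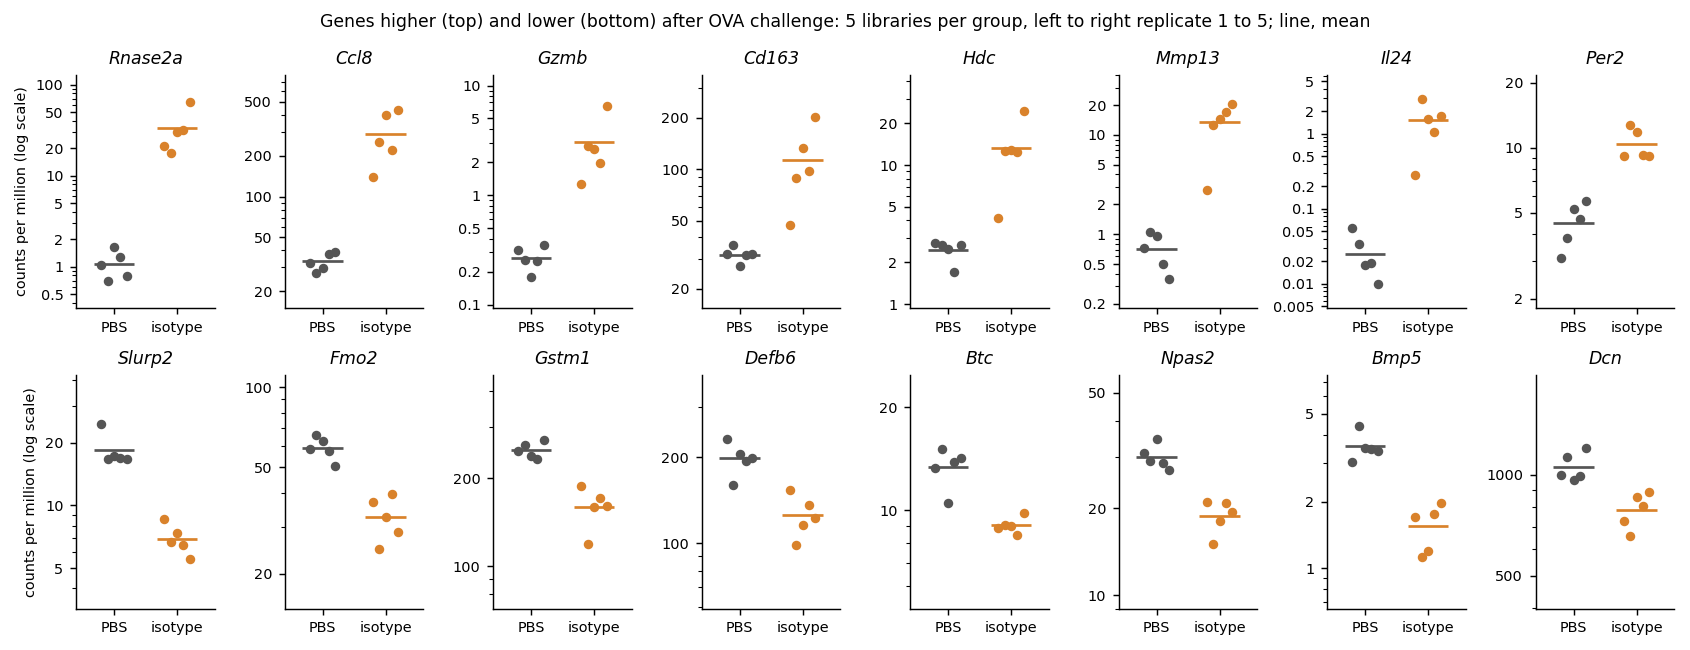
CPM of 16 genes in each of the 5 PBS (gray) and 5 isotype (orange) libraries, each panel with its own log axis, points from left to right for replicates 1 to 5 and a line at the mean. The 16 genes were picked with their values known, and the libraries of the groups do not overlap for any of them. Over all genes tested, 6.85% were separate upward and 5.43% downward. *Il24* passed the count minimum only through OVA-challenged libraries, and a library with *Il24* at 0 is drawn at 0.01 CPM.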

How the data were processed

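Conjunctival mRNA from 15 libraries, 5 per group, was sequenced with a stranded kit. The authors aligned reads to the mouse B38 genome in Omicsoft Array Studio and deposited estimated counts per gene for an Ensembl gene model. The counting method and its use of strand are not given in the sources used here, so overlapping and antisense genes may share reads. The study's methods mention outliers found in quality checks without naming the libraries or saying what was done with them. Some of its RNA-Seq figure legends give group sizes below 5, so its own comparisons may rest on fewer libraries. All 15 libraries were kept here. Of 55487 genes, 55227 matched the annotation.

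Counts were rounded to whole numbers, and a gene was kept when 5 or more libraries had 10 or more counts. One edgeR model (4.0.16, R 4.3.3; quasi-likelihood test, TMM scaling) was fitted over all 15 libraries, and p-values were adjusted by Benjamini-Hochberg over all 19006 genes. DESeq2 (1.42.0) and limma (3.58.1) served as alternatives, as did FPKM computed here with annotated gene lengths. On data simulated for isotype against PBS (18821 genes), edgeR recovered 67 of 99 changes of 2-fold and 94 of 99 of 4-fold, with 6 false calls among 167. The smallest two-sided p of an exact permutation test of 5 against 5 libraries, over 252 splits, is 0.00794.

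Named genes were the 2 largest called members of each list at 1 CPM or more in the higher group, or the most abundant member where none was called. Outside the lists they were the 12 largest rises and falls without overlap at 2 CPM or more, and the 6 most abundant each way at 1.5-fold or more. Immunoglobulin and T cell receptor segments, provisional names and genes of the published text were left out of the latter. The gene lists and members were chosen with earlier results of these data known. Some genes that these rules pick are not reported here. Promoters came from RefSeq on GRCm38.p6.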

Additional observations from a re-analysis of the deposited data

Results flagged for a closer look

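Of 288 sets of 5 values (each named gene in each group), 21 had 1 library far from the other 4 by Dixon's test, and chance flags about 1 in 20. In the isotype group, replicate 1 was low for *Il1rl1* (4.88 CPM, others 18.8 to 26.8 CPM), *Mmp13* (2.8 CPM, others 12.7 to 20.7 CPM) and *Mmp10* (0.286 CPM, others 2.32 to 4.3 CPM). Replicate 5 of that group was high for *Gzma* (9.33 CPM, others 2.84 to 3.8 CPM). Isotype replicate 2 stood apart for 8 genes. It was high for the hair keratin *Krt71* (2940 CPM, others 222 to 444 CPM) and for *Gjb2* (425 CPM, others 137 to 188 CPM). It was low for the muscle genes *Pfkm* (167 CPM, others 229 to 240.0 CPM), *Cox8b* (17 CPM, others 21.9 to 24.1 CPM), *Tcap* (40.0 CPM, others 62 to 67 CPM), *Des* (245 CPM, others 331 to 367 CPM) and *Art5* (1.39 CPM, others 1.94 to 2.17 CPM), and for *Rab3d* (165 CPM, others 205 to 217 CPM).

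In the PBS group, replicate 1 was high for *Il1b* (6.13 CPM, others 3.73 to 4.27 CPM), *Mcm5* (30.8 CPM, others 26.8 to 27.9 CPM), *Bub1* (6.5 CPM, others 5.72 to 5.89 CPM) and *Slurp2* (24.5 CPM, others 16.6 to 17.2 CPM). Replicate 2 was high for *Ptgs2* (2.17 CPM, others 1.08 to 1.31 CPM) and *Krt71* (467 CPM, others 237 to 280.0 CPM). Replicate 3 was low for *Lgr6* (26.9 CPM, others 37.1 to 42.2 CPM). Replicate 4 was low for *Hdc* (1.7 CPM, others 2.51 to 2.74 CPM) and *Pdia4* (69.7 CPM, others 78 to 80.7 CPM).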

How the results depend on the processing

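The number of calls, 3235 (1812 higher, 1423 lower), moved most with the muscle score as a covariate, where 487 genes were called (426 higher, 61 lower). The score differs between the groups, so part of that drop cannot be told apart from the challenge. Lower calls numbered 2148 with a lacrimal acinar score as a covariate and 832 with no count filter, and higher calls 1165 with log2(FPKM + 1). A change of at least 1.5-fold left 1306 (889 and 417), and an adjusted p under 0.01 left 868 (601 and 267). Leaving out 1 library gave 1863 to 3936 calls, 1095 to 2199 higher and 768 to 1737 lower, with the highest counts without isotype replicate 1. DESeq2 (4273), the 10 libraries alone (2594), voom with quality weights (4033) and log2(CPM + 1) (2983) stayed within 1.5 times.

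Same-numbered isotype and PBS libraries had correlated deviations of −0.385, 0.0346, −0.127, 0.454 and 0.0255, and not every library correlated best with its own number, so the numbers were treated as names. A replicate block gave 2115 calls, 1308 higher and 807 lower.

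Of 144 named genes 136 were called, 104 of them in all fits that left out 1 library and tested them, and 53 in all 12 other settings. With the muscle score as a covariate the change turned positive for *Eno3* (0.041), *Cpt1b* (0.065), *Des* (0.117), *Pygm* (0.042), *Mybpc1* (0.116) and *Krt13* (0.016), and was −0.219 for *Krt79*. *Krt13*, not called, was also 0.083 with the lacrimal score, 0.05 with voom and −0.11 to 0.052 without 1 library. *Krt79*, not called, was −0.0 with upper-quartile scaling and −0.058 to 0.102 without 1 library. The cause was not tested.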

Other observations

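A set of 14 genes linked to gamma-delta T cells and IL-17-producing lymphocytes was chosen after their values were seen. Of these, 6 were called lower and 1 higher, a count that follows from the choice and is a description only. Over all genes tested 7.49% were called lower and 9.53% higher. *Cd163l1*, a scavenger receptor of gamma-delta T cells, measured 4.63, 2.85, 3.38, 3.31 and 4.55 CPM in the PBS libraries and 1.61, 2.15, 0.976, 0.821 and 1.48 CPM in the isotype libraries (−1.40, adjusted p = 0.0321), a change that lost its call in 5 of the 15 fits that left out 1 library. The receptor constant segments *Trdc* and *Tcrg-C1* fell from 3.78 ± 0.908 to 2.07 ± 0.642 CPM (−0.87, adjusted p = 0.0381) and from 2.31 ± 0.47 to 1.22 ± 0.368 CPM (−0.92, adjusted p = 0.0395), and each lost its call in 8 of those fits. *Trdv4* (−1.17, adjusted p = 0.0326) lost its call in 6 and *Il17re* (−0.23, adjusted p = 0.025) in 4. *Blk*, described above, was the other lower call. *Maf* was called higher (0.49, adjusted p = 0.0352, lost in 6). *Il23r* (−0.13), *Ccr6* (−0.38), *Zbtb16* (−0.50), *Sox13* (0.12), *Tcrg-C2* (−0.20), *Tcrg-C4* (−0.45) and *Il17a* did not pass the test. None of the 14 was called in the edgeR fit with the muscle score as a covariate.

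Further genes chosen after their values were seen held in every fit that left out 1 library. The collagen VI chain *Col6a5* rose from 10.8 ± 1.43 to 63.4 ± 28.2 CPM (2.55, adjusted p = 0.000177), and the hyaluronan synthase *Has3* from 3.96 ± 0.42 to 16 ± 6.9 CPM (2.02, adjusted p = 0.000618). *Cpxm1*, a carboxypeptidase-like protein, rose by 2.11 and *Tnn*, tenascin N, by 1.85. *Shh*, sonic hedgehog, rose by 1.97, and by 1.31 without isotype replicate 2. The macrophage membrane genes *Ms4a4a*, *Ms4a6d* and *Ms4a4c* rose by 2.59, 2.61 and 2.31. *Mrgprg*, an orphan receptor, rose by 2.09 and the phospholipase *Pla2g4d* by 2.61. Among falls, the growth factor *Igf2* went from 31.6 ± 5.31 to 17.3 ± 4.48 CPM (−0.87, adjusted p = 0.00654). *Oxtr*, the oxytocin receptor, went from 9.14 ± 1.16 to 5.24 ± 1.24 CPM (−0.81, adjusted p = 0.0042) and was still called with the muscle score as a covariate (adjusted p = 0.0425). *Crhr2*, a receptor of the corticotropin-releasing hormone family, fell by 0.89 on the log2 scale and the secreted phospholipase *Pla2g2d* by 0.86. The calls of *Igf2* (−0.53, adjusted p = 0.257), *Crhr2* (−0.31, adjusted p = 0.197), *Pla2g2d* (adjusted p = 0.107), *Shh* (1.15, adjusted p = 0.393) and *Tnn* (adjusted p = 0.0673) were lost with that covariate.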
